A study of Mus musculus with 18 samples.

Results

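Small nucleolar RNAs (snoRNAs) are described here over the 18 arrays of the series. A gene was taken as a snoRNA when its symbol began with Snora or Snord followed by a number, and each gene was represented by its brightest probe set among those annotated with 1 symbol. The rule gave 73 of 22180 genes, of which 26 were Snora genes (box H/ACA) and 47 were Snord genes (box C/D). The measured values had no part in the choice of genes, except that brightness picked the probe set in the 2 snoRNAs that had more than 1.

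Embryoid bodies, the free-floating aggregates in which mouse embryonic stem cells begin to differentiate, were grown from C57BL/6 cells. From day 3 of the embryoid body stage they received 0.25 mM thalidomide, a sedative and teratogen that binds the ubiquitin ligase receptor cereblon, or the vehicle alone (0.25% DMSO). Cultures were collected after 24, 48 and 72 h, giving 3 thalidomide groups and 3 control groups of 3 biological replicates each, and total RNA from each culture was hybridised to 1 array. No group carried a mutation or transgene. The series description calls the controls unexposed whereas the treatment protocol names the vehicle. Source names of the controls give their hours as time since embryoid bodies formed. The titles of 12 arrays carry a re-analysis tag: all 9 controls and the 3 thalidomide arrays of 24 h. The other 6 arrays, thalidomide at 48 and 72 h, do not carry it, so at those times tag and treatment cannot be told apart.

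snoRNAs are stable non-coding RNAs of the nucleolus. Box C/D RNAs assemble with fibrillarin, Nop56, Nop58 and Snu13 and guide 2′-O-methylation, mostly of ribosomal RNA; box H/ACA RNAs assemble with dyskerin (Dkc1), Nop10, Nhp2 and Gar1 and guide pseudouridylation. A few act in cleavage of the ribosomal RNA precursor instead. In mammals most are cut out of introns of host genes, many of which encode ribosomal proteins or nucleolar factors, while others (the Snhg genes and Gas5) make a spliced RNA whose short reading frames send it to nonsense-mediated decay. The amount of a snoRNA therefore depends on transcription of its host, on processing of the intron and on the stability of the particle, and need not follow the spliced host RNA.

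All values are log2 signals, so a difference of 1 is a doubling. A gene was called changed when limma's moderated test, fitted over all 22180 genes and 18 arrays, gave a Benjamini-Hochberg adjusted p under 0.05, and all 73 snoRNAs were tested. Replicate arrays correlated at 0.992 to 0.996 and the array medians lay between 5.37 and 5.46. Between 24 and 72 h in controls, 5 of 8 pluripotency genes fell (Nanog by 4.31, Pou5f1 by 1.08) and Sox2, which is also a neural progenitor gene, rose by 1.03. All 3 measured genes of the primitive streak fell, with a median of -3.76, and of 4 fibroblast or feeder cell markers Postn and Col1a1 rose and Thy1 fell. Between thalidomide and control cultures of 24 h, Tdgf1 (by -0.75) was the only called gene of the cell marker lists. Leaving out any 1 array of that time took Tdgf1 past the threshold (limma adjusted p 0.0725 to 0.134). Array means over the 3 streak genes were 8.0029 to 8.1544 in thalidomide cultures and 8.4137 to 8.5311 in controls. Of these 3, 2 were lower at an unadjusted p under 0.05. Over the 8 pluripotency genes the array means were 7.0196 to 7.158 and 7.1615 to 7.2505, with a median change of 0.06. The part of these markers in the snoRNA results was not tested. Markers of blood cells were dim, with array means of 3.29 for Hbb-bh1 and 2.97 for Ptprc. In bulk RNA of this kind, fewer cells of a type and less RNA per cell cannot be told apart.

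The snoRNAs were bright. Their median signal was 8.77, against 5.77 for all genes, 55 of the 73 lay in the brightest 25% of genes and 0 in the dimmest. The class medians were 8.39 for H/ACA and 8.83 for C/D. The brightest H/ACA RNAs were Snora33, Snora21 and Snora34, and the brightest C/D RNAs were Snord22, Snord82 and Snord49b. In the RefSeq annotation the H/ACA RNAs were 56 to 205 bases long (median 118.5) and the C/D RNAs 48 to 221 (median 68). By position, 64 of the 73 lay within the span of exactly 1 other gene and 6 within several. The 3 held by no other gene were Snord118, Snord13 and Snord89. Of the 64, 55 lay in a gene with its own measured probe set, and these 55 shared 41 hosts. Some members carry lettered names of 1 family (Snora73a and Snora73b, Snord88a and Snord88c, Snord49a and Snord49b). Their sequences were not compared here, so values of such pairs are uncertain where probe sets could share signal.

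Host genes of snoRNAs often begin their transcripts in a run of pyrimidines, and the starts of the genes that hold the most changed members are shown because the results below set those snoRNAs against their hosts. Each stretch runs from 30 bases before the annotated start over 60 bases, 5′ to 3′ on the gene's strand, from RefSeq (GRCm38.p6), with capitals marking a run of 6 or more C or T that begins within 10 bases of the start.
Snhg12, holding Snora44, Snord99, Snora16a and Snora61, chr4:132308648-132308707, plus strand: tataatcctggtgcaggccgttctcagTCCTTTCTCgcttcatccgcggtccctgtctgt
Snhg3, holding Snora73a and Snora73b, chr4:132353657-132353716, minus strand: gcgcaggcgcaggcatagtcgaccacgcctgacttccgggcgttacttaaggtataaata
Gm36220, holding Snord104, chr11:106500885-106500944, plus strand: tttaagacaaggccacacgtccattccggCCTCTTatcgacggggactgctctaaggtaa
Sf3b3, holding Snord111, chr8:110846774-110846833, minus strand: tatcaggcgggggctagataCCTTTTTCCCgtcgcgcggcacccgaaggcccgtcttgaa
Snhg16, holding Snord1b, chr11:116671630-116671689, plus strand: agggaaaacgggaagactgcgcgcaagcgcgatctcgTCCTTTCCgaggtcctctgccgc
Among the 48 holding genes with a start sequence, 21 (43.8%) had such a run, compared with 26.2% of the 27025 genes in the same table. The count is of letters in a window, read on the coding strand alone.

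After 24 h, snoRNAs were higher in thalidomide cultures than in controls. Of the 73, 17 rose and 0 fell by limma, and 40 had an unadjusted p under 0.05, as did 4710 of the 22180 genes. Of all genes 1.42% rose and 5.43% fell. The rise took in 5 of 26 H/ACA RNAs and 12 of 47 C/D RNAs. The median change was 0.15 for H/ACA, 0.28 for C/D and -0.01 for all genes. A positive change was found in 62 of the 73 snoRNAs (84.9%) and in 48.5% of all genes. In 35 snoRNAs all 3 thalidomide arrays lay above all 3 controls, a pattern found in 9.23% of genes. The reverse pattern held for 1 snoRNA, the H/ACA RNA Snora31, and for 15.9% of genes. The classes were not tested against each other.

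Among H/ACA RNAs, Snora44 had the largest change. Its signals were 11.76, 11.34 and 11.34 in thalidomide cultures, against 10.47, 10.34 and 10.41 in controls. All thalidomide values exceeded all controls, a difference of 1.07 ± 0.11 (SE, n = 3 each), or 2.1-fold, with a limma adjusted p of 0.000102. Snora73a and Snora73b, the U17 RNAs that act in cleavage of the precursor of 18S ribosomal RNA, moved alike. Snora73a read 9.41, 8.91 and 9.0 in thalidomide cultures and 8.48, 8.41 and 8.50 in controls, a difference of 0.64 ± 0.12 (SE, n = 3 each; limma adjusted p = 0.00613). Snora73b read 9.63, 9.21 and 9.31 in thalidomide cultures and 8.82, 8.76 and 8.82 in controls, a difference of 0.58 ± 0.10 (SE, n = 3 each; limma adjusted p = 0.00416). Neither pair of groups overlapped. Snora47 rose by 0.37 and Snora33 by 0.30. The Snora33 value rests on its brighter probe set: with the mean of its probe sets the difference was 0.03 (limma adjusted p = 0.895).

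Snord104 led the C/D class. Its signals were 10.55, 10.21 and 10.13 in thalidomide cultures, against 9.38, 9.48 and 9.30 in controls, a difference of 0.91 ± 0.11 (SE, n = 3 each; limma adjusted p = 0.000436) with no overlap. Snord111 read 7.87, 7.83 and 8.16 in thalidomide cultures and 7.18, 7.15 and 7.34 in controls, and rose by 0.73 (limma adjusted p = 0.0037). Its thalidomide arrays all stood above its controls, and its highest array was replicate 3. Snord1b rose by 0.59, Snord99 by 0.55, Snord35b by 0.54 and Snord83b by 0.49. The other C/D RNAs that rose were Snord73b, Snord110, Snord55, Snord23, Snord53 and Snord87, by 0.29 to 0.47. Of the C/D RNAs that are not methylation guides, Snord118 (U8, needed in Xenopus for maturation of 5.8S and 28S ribosomal RNA) averaged 7.0 ± 0.48 in thalidomide cultures and 7.04 ± 0.03 in controls (SD, n = 3 each). Snord13 (U13, which in human cells guides acetylation of 18S ribosomal RNA) averaged 9.31 ± 0.46 in thalidomide cultures and 9.27 ± 0.15 in controls (SD, n = 3 each). For both RNAs the spread among thalidomide arrays exceeded the difference.

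**Figure D1:**
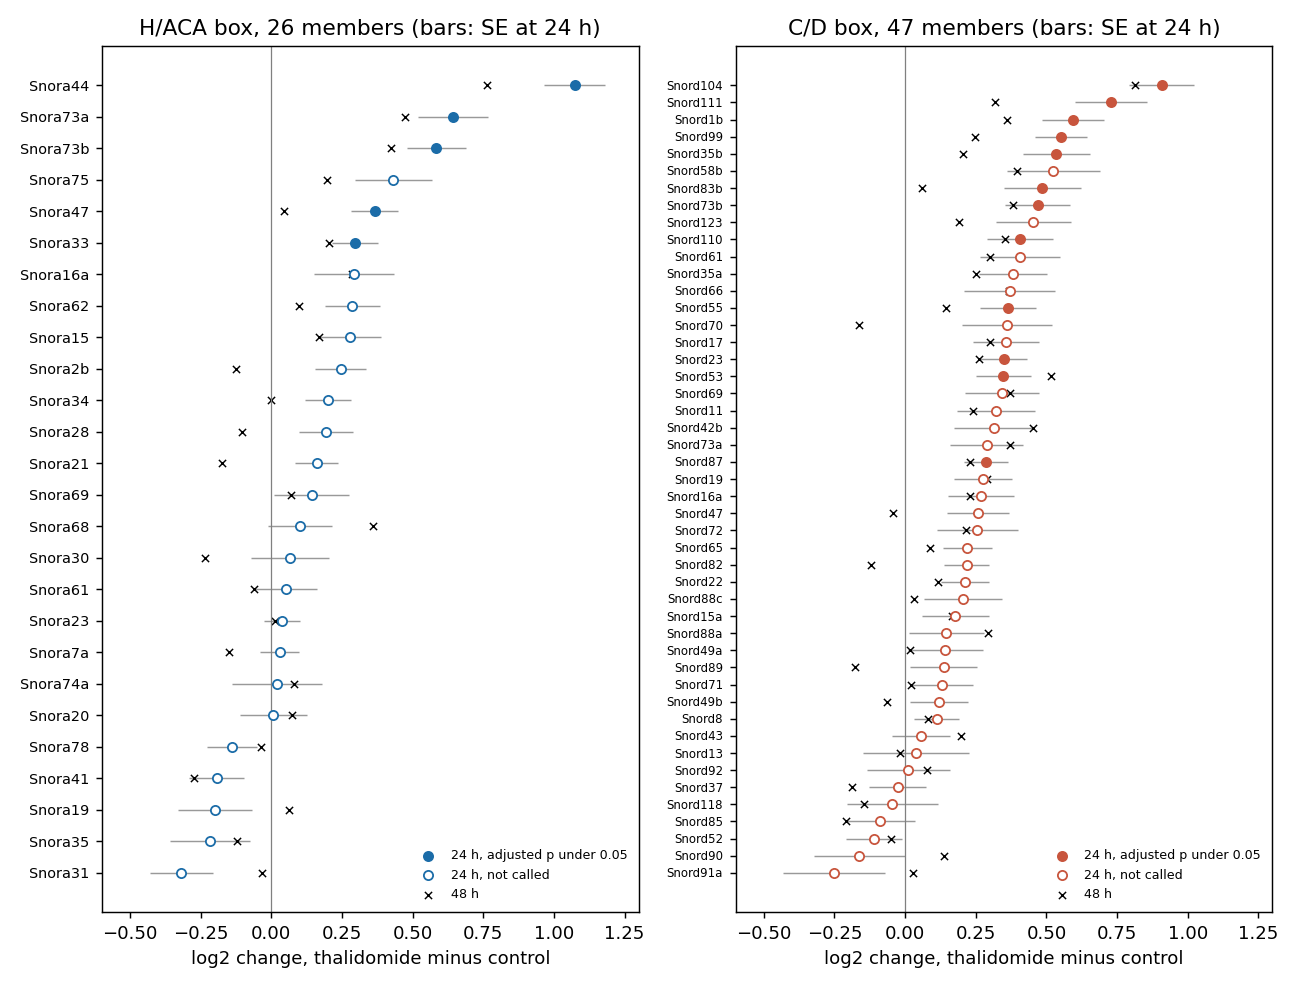
Difference in log2 signal between thalidomide and control cultures for each snoRNA (left, 26 H/ACA; right, 47 C/D). Circles give 24 h with bars of 1 standard error, filled where the limma adjusted p was under 0.05, and crosses give 48 h; most circles lie right of 0, with Snora44 at 1.07 and Snord104 at 0.91.

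One array carried much of the height at 24 h. Each array's class level was taken as the median over members of the signal minus that member's mean over the 18 arrays. For H/ACA it was 0.36, 0.08 and 0.14 in the thalidomide arrays and 0.02, 0.03 and 0.08 in the controls. For C/D it was 0.32, 0.04 and 0.01 in the thalidomide arrays and -0.15, -0.15 and -0.16 in the controls. Thalidomide replicate 1 thus stood apart in both classes, while replicates 2 and 3 still lay above every 24 h control. Replicate 1 was the highest of all 18 arrays for 42 of the 73 snoRNAs, and for 10.2% of genes. On that array the level of the 5 measured Scarna genes (guides of the Cajal body) was 0.20, that of 5 Rnu and Rn7s genes (U-type small nuclear RNAs, U3 and 7SK) was 0.24, and that of the brightest 25% of genes was -0.09. Their part in the result was not tested.

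Without thalidomide replicate 1, the medians at 24 h were 0.07 for H/ACA and 0.18 for C/D. The calls then numbered 7: Snora44 (0.93), Snora73a (0.49), Snora73b (0.46), Snord104 (0.78), Snord111 (0.77), Snord1b (0.47) and Snord99 (0.43). Without control replicate 1 there were also 7 calls, and without control replicate 3 there were 9. Each of these counts held rises alone. Over all genes the rises numbered 316 with all arrays, 114 without control replicate 1 and 116 without control replicate 3. The count over all genes without thalidomide replicate 1 is not given here. How much of the drop in snoRNA calls comes from fitting 1 array fewer was not tested.

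**Figure D2:**
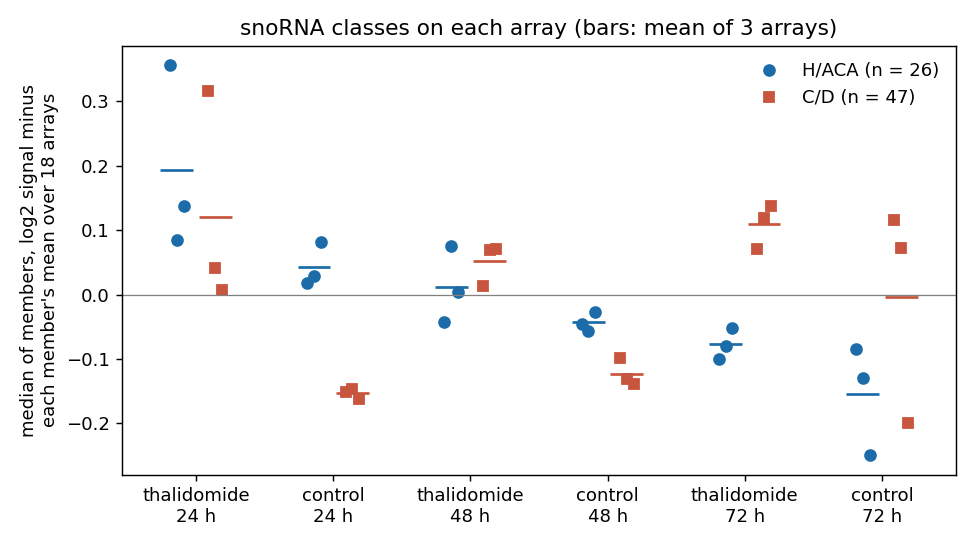
Level of each snoRNA class on each array: the median over members of log2 signal minus the member's mean over 18 arrays. Points are arrays (circles H/ACA, squares C/D), horizontal bars are means of 3 arrays; thalidomide replicate 1 of 24 h stands highest at 0.36 and 0.32, and control replicate 3 of 72 h lowest at -0.25 and -0.20.

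Among other small non-coding RNAs, all 5 Scarna genes and 4 of 5 Rnu and Rn7s genes had a positive change at 24 h. Much of this height lay on thalidomide replicate 1. Scarna levels were 0.20, -0.05 and -0.11 in thalidomide arrays and -0.11, -0.24 and -0.13 in controls. Rnu and Rn7s levels were 0.24, -0.07 and -0.01 in thalidomide arrays and 0.08, -0.07 and -0.06 in controls. Rnu5g, 1 of the 4, was dim (mean signal 2.32). Scarna2 rose by 0.45 and was the only one of 5 Scarna genes called, with a median of 0.13 over the 5. Rnu3a, which encodes U3, a box C/D RNA of pre-ribosomal RNA cleavage outside the symbol rule, rose by 0.48 (limma adjusted p = 0.0275) and was the only one called of 5 Rnu and Rn7s genes, whose median was 0.10. Of 483 microRNA genes, 13 rose and 6 fell, with a median of 0.08. The dimmest 25% of genes had a median of 0.05 and the brightest 25%, where most snoRNAs lie, a median of -0.08. Across members, the 24 h change had a Spearman correlation with brightness of 0.54 over 26 H/ACA RNAs and 0.39 over 47 C/D RNAs, and with length of 0.29 and -0.02. These are descriptions: the points share 6 arrays.

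The genes that hold the snoRNAs differed from them at 24 h. Over the 55 snoRNAs with a measured host, the median 24 h change was 0.26 for the snoRNA and -0.10 for the host, and in 47 the snoRNA's change was the larger. Of the 41 hosts, 0 rose by limma (3 rose at an unadjusted p under 0.05) and 4 fell: Rpl32 by 0.48, Snhg12 by 0.46, Rps3 by 0.32 and Eef1b2 by 0.27. Of all genes 1.42% rose and 5.43% fell, and of the 5545 brightest genes 122 rose and 737 fell. Whether hosts fell more often than other genes was not tested. Without thalidomide replicate 1, Rpl32 and Rps3 alone were called, and without control replicate 1 the calls also numbered 2. Among the 12 called snoRNAs with a measured host, 8 had a host with a negative change, and in 2 cases, both in Snhg12, the host fell. The rank correlation of the changes over the 55 was -0.15, given as a description because several snoRNAs share a host and all share the arrays.

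Snhg12 shows the separation within 1 transcript. Its own probe set read 6.24, 6.5 and 6.74 in thalidomide cultures, against 7.05, 6.87 and 6.93 in controls, and fell by 0.46 ± 0.11 (SE, n = 3 each; limma adjusted p = 0.0217). Every thalidomide value lay below every control. Without thalidomide replicate 1 the difference was -0.33 (limma adjusted p = 0.108), and the call was also lost without thalidomide replicate 2, control replicate 1 or control replicate 3. From the same gene, Snora44 rose by 1.07 and Snord99 by 0.55, whereas Snora16a differed by 0.29 and Snora61 by 0.05 without passing the test. Snhg3 differed by -0.25 (limma adjusted p = 0.283) while both of its U17 RNAs rose, and by -0.07 without thalidomide replicate 1. Snord111 lies in Sf3b3, a splicing factor gene that differed by 0.13, and Snord53 in Wdr43, a ribosome biogenesis gene that differed by 0.07.

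**Figure D3:**
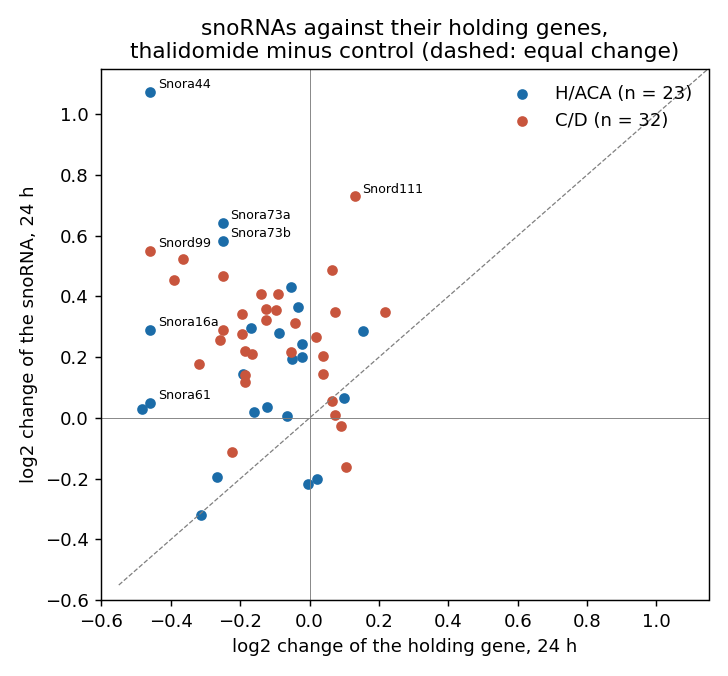
Change at 24 h, thalidomide minus control on the log2 scale, of 55 snoRNAs (y axis; blue H/ACA, red C/D) against the gene whose span holds each (x axis). The dashed line marks equal change; 47 points lie above it, and the 4 snoRNAs of Snhg12 share the x value -0.46.

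Some of the genes that build snoRNA particles fell at 24 h. Over all genes 1.42% rose and 5.43% fell, and of the 5545 brightest genes 122 rose and 737 fell. Whether the lists below fell more often than other genes was not tested. Of the 4 H/ACA core protein genes, Dkc1 fell by 0.28 and Gar1 by 0.33. Of the 3 measured C/D core protein genes (Nop56, Nop58 and Snu13), 0 were called by limma and 1 had an unadjusted p under 0.05, with differences of -0.14, -0.13 and 0.04. Of 12 assembly factors, 4 fell: Taf9 by 0.42, Nufip1 by 0.38, Pih1d1 by 0.33 and Znhit6 by 0.29. Among 8 trimming and debranching genes, the exosome subunit Exosc3 fell by 0.39 and was the only one called. Of 14 genes of RNA polymerase I transcription and the nucleolus, 4 fell (Taf1b by 0.52, Polr1d by 0.47, Taf1a by 0.43 and Rrn3 by 0.30) and Taf1d, itself a snoRNA host in mammals, rose by 0.25. Leaving out any 1 array of 24 h took Taf1d past the threshold (limma adjusted p 0.0585 to 0.164). Of 17 Snhg-type hosts, 3 fell: Snhg12, Snhg6 by 0.41 and Snhg15 by 0.40. Without thalidomide replicate 1, 0 of the 17 were called by limma (5 had an unadjusted p under 0.05) and Snhg15 differed by -0.26. By the same fit 0 of the 7 core protein genes (2 at an unadjusted p under 0.05), 2 assembly factors (Taf9 and Nufip1) and 2 RNA polymerase I genes (Polr1d and Rrn3) were called, along with Exosc3. The level of the Snhg-type hosts was -0.09 on that array, 0.07 and 0.08 on the other thalidomide arrays, and 0.12 to 0.21 on the controls. Other arrays mattered too. Without control replicate 1 or without control replicate 3, limma called 0 of the 17 Snhg-type hosts (6 and 5 had an unadjusted p under 0.05). In both fits it called 2 of 12 assembly factors. Of the fits leaving out 1 array, Dkc1 was called only without thalidomide replicate 2, and Gar1 only without thalidomide replicate 3. Of 66 ribosomal protein genes, 2 rose and 7 fell, with a median of -0.13. The nonsense-mediated decay list had 0 of 5 called by limma and 1 with an unadjusted p under 0.05, with a median of 0.05.

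After 48 h, fewer snoRNAs passed the threshold as higher in thalidomide cultures than after 24 h. Of the 73, 5 rose and 0 fell by limma, and 25 had an unadjusted p under 0.05, as did 5161 of the 22180 genes. Of all genes 1.85% rose and 4.23% fell. All 5 were among the 17 of 24 h, that is 100% of the 48 h list and 29.4% of the 24 h list. The overlap of the 2 times over all genes is not given here. The medians were 0.05 for H/ACA, 0.20 for C/D and 0.01 for all genes. A positive change was found in 52 of the 73 snoRNAs (71.2%) and in 51.2% of all genes. In 33 snoRNAs (35 at 24 h) every thalidomide array lay above every control, as in 12.3% of genes, and in 4 every one lay below, as in 16.9%. Of the 33, 26 were C/D RNAs.

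Snora44 read 10.91, 11.02 and 10.94 in thalidomide cultures at 48 h, against 10.20, 10.07 and 10.30 in controls, a difference of 0.76 ± 0.11 (SE, n = 3 each; limma adjusted p = 0.00139). Snord104 read 9.96, 10.19 and 10.36 in thalidomide cultures, against 9.43, 9.34 and 9.30 in controls, a difference of 0.81 ± 0.11 (SE, n = 3 each; limma adjusted p = 0.00139). Both RNAs kept their groups apart. Snord53 rose by 0.52, Snora73a by 0.47 and Snora73b by 0.42. Snhg12 differed by 0.03 at this time, with a mean of 6.58 ± 0.14 in thalidomide cultures and 6.55 ± 0.05 in controls (SD, n = 3 each). Wdr43, the host of Snord53, rose by 0.23, and Rpl3, host of Snord43 and Snord83b, rose by 0.51, while Rpl32, host of Snora7a, fell by 0.35. These were the only 3 of the 41 hosts called at 48 h, when 1.85% of all genes rose and 4.23% fell. Of the 4 fibroblast or feeder cell markers, Thy1 (by 0.47) and Col1a1 (by 0.44) also rose, with array means over the 4 markers of 5.88 to 5.94 in thalidomide cultures and 5.55 to 5.78 in controls. Their part in the result was not tested. The calls at 48 h numbered 3 without control replicate 2, without control replicate 3 or without thalidomide replicate 2. Over all genes the rises numbered 410 with all arrays, 202 without control replicate 2 and 214 without control replicate 3. The count over all genes without thalidomide replicate 2 is not given here, and the part of fitting 1 array fewer was not tested.

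After 72 h, 0 of the 73 snoRNAs were called by limma (0.00902% of all genes were called). An unadjusted p under 0.05 was found in 5 of the 73 and in 2023 of all 22180 genes, which is a larger share. The 5 were Snora44, Snora61, Snora16a, Snora73b and Snord70. The first 3 lie in Snhg12. In 8 snoRNAs, 6 of them H/ACA, every thalidomide array lay above every control, as in 7.27% of genes, and in 1 (Snora35) every one lay below, as in 7.51%. The smallest p among H/ACA RNAs belonged to Snora44, with 10.25, 10.19 and 10.32 in thalidomide cultures and 9.98, 10.05 and 9.72 in controls, a difference of 0.33 (limma adjusted p = 0.319). Among C/D RNAs it belonged to Snord70, with 9.53, 9.46 and 9.34 in thalidomide cultures and 9.33, 8.96 and 8.62 in controls, a difference of 0.47 (limma adjusted p = 0.34). The medians were 0.12 for H/ACA and 0.10 for C/D. A positive change was found in 60 of the 73 snoRNAs (82.2%) and in 51.3% of all genes. Control replicate 3 was the lowest of all 18 arrays for 24 of the 73 snoRNAs, and for 9.59% of genes, and its levels of -0.25 for H/ACA and -0.20 for C/D compare with -0.08 and -0.13, and 0.12 and 0.07, in the other controls. Without it the 72 h medians were 0.07 for H/ACA and -0.003 for C/D.

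The effect of thalidomide was then compared between times. From 24 to 72 h it fell by 0.74 ± 0.15 in Snora44 and by 0.77 ± 0.16 in Snord104 (SE; limma adjusted p = 0.0439 for both). These were the only 2 of the 73 called for this difference (0.496% of all genes were called). They passed in 8 and 6 of 20 alternatives. Leaving out any 1 of the 24 h control arrays or of the 72 h arrays, or thalidomide replicate 1 of 24 h, took both below the threshold, with limma adjusted p values up to 0.107 for Snora44 and 0.117 for Snord104. Between 24 and 48 h, where limma called 0 of all genes, and between 48 and 72 h, where it called 0.0947%, 0 snoRNAs were called. In each, 9 of the 73 had an unadjusted p under 0.05, as did 1701 and 3110 of the 22180 genes.

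**Figure D4:**
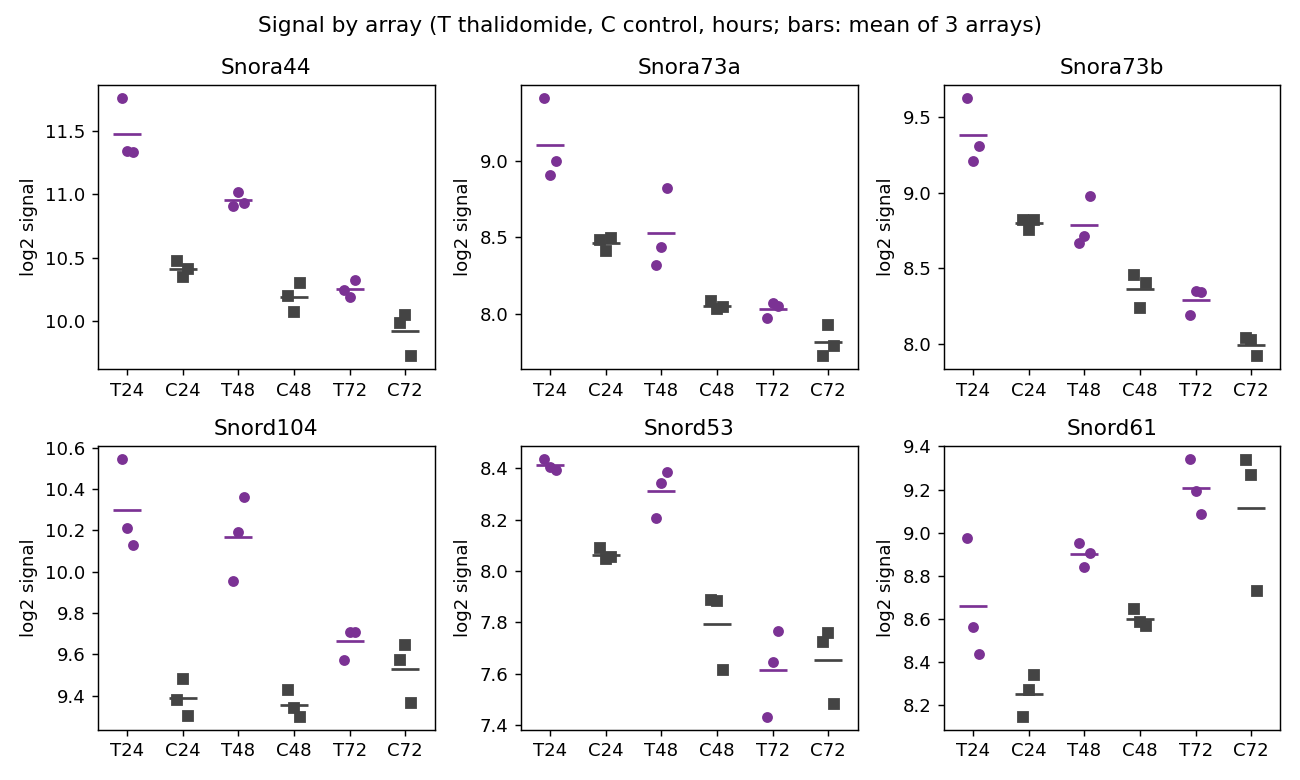
Log2 signal on each of the 18 arrays for 6 snoRNAs (purple circles thalidomide, black squares control, horizontal bars the mean of 3 arrays). Snora44 and Snord104 keep thalidomide above control at 24 and 48 h; Snord61 rises over time in both arms.

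In the control cultures the medians of the classes moved to opposite sides over time. Between 24 and 72 h, 13 of 26 H/ACA RNAs fell and 1 rose (Snora47), whereas 12 of 47 C/D RNAs rose and 2 fell (Snord49a and Snord53). Of all genes, 13.1% rose and 14.3% fell. The medians were -0.22 for H/ACA, 0.18 for C/D and -0.04 for all genes, and both class medians kept their sign under each of the 14 alternatives run for this contrast. The difference between the class levels, H/ACA minus C/D, was 0.17, 0.18 and 0.24 in the 24 h controls, 0.05, 0.08 and 0.11 at 48 h, and -0.20, -0.20 and -0.05 at 72 h. The 3 times did not overlap. In thalidomide cultures it was 0.04, 0.04 and 0.13 at 24 h, -0.06, 0.01 and -0.07 at 48 h, and -0.17, -0.20 and -0.19 at 72 h. At 24 h and at 48 h the thalidomide arrays all lay below the controls, and at 72 h the groups overlapped.

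Snora74a (U19), an H/ACA RNA held by Snhg4, read 8.65, 8.22 and 8.57 in controls at 24 h, 7.85, 7.96 and 8.05 at 48 h, and 7.37, 7.62 and 7.30 at 72 h. The 3 times were separate, and the fall from 24 to 72 h was 1.05 ± 0.16 (SE; limma adjusted p = 8.97e-05). Snora61 fell by 0.89, Snora73b by 0.81 and Snora78 by 0.68. On the C/D side, Snord61, held by the RNA-binding protein gene Rbmx, read 8.15, 8.27 and 8.34 at 24 h, 8.64, 8.59 and 8.57 at 48 h, and 9.34, 9.27 and 8.73 at 72 h. It rose by 0.86 ± 0.14 (SE; limma adjusted p = 0.000213), with replicate 3 of 72 h the lowest of its group yet above the earlier times. Snord66 rose by 0.77, Snord71 by 0.52 and Snord69 by 0.47. By 48 h, 7 H/ACA RNAs had already fallen from their 24 h level in controls, among them Snora74a by 0.53 and Snora75 by 0.44, and 1 C/D RNA, Snord71, had risen by 0.39. Over that step 6.93% of all genes rose and 6.7% fell.

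The falls depended little on single arrays, and the rises more. Leaving out 1 control array at a time gave 12 or 13 falls among H/ACA RNAs. The rises among C/D RNAs numbered 20 without replicate 3 of 72 h, and 6 without replicate 2 and 4 without replicate 1 of 72 h. Without replicate 1, 2 or 3 of 24 h they numbered 4, 8 and 7. Over all genes the rises without replicate 1, 2 or 3 of 24 h numbered 2504, 2488 and 2663, against 2914 with all arrays. Counts over all genes for the fits without a 72 h control are not given here.

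**Figure D5:**
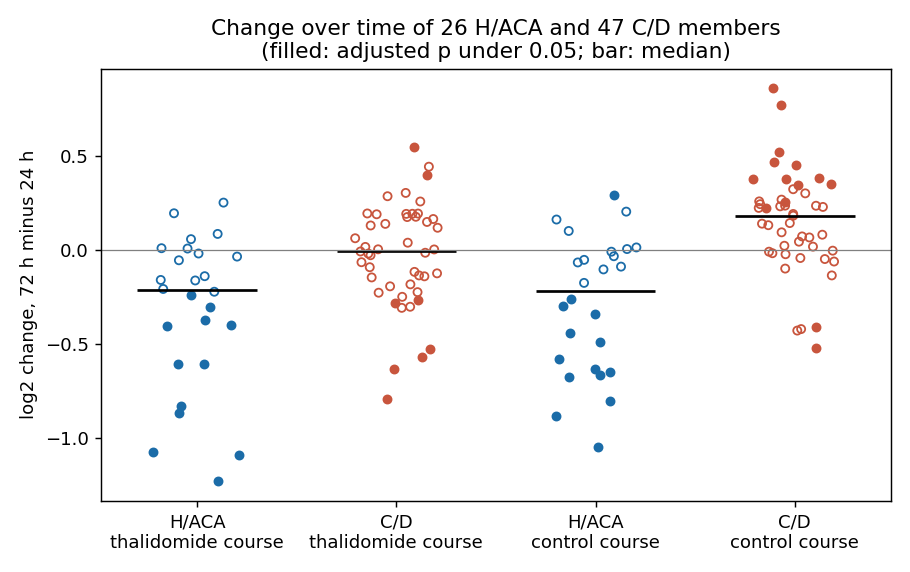
Change from 24 to 72 h on the log2 scale of each snoRNA, by class, in the thalidomide and control courses. Points are snoRNAs, filled where the limma adjusted p was under 0.05, and bars are medians, which in controls are -0.22 for H/ACA and 0.18 for C/D.

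In the thalidomide cultures, whose 24 h arrays carry the re-analysis tag and whose 72 h arrays do not, 12 of 26 H/ACA RNAs fell and 0 rose by limma (the only 12 of the 26 with an unadjusted p under 0.05), while 6 of 47 C/D RNAs fell and 2 rose (Snord61 and Snord88a). Of all genes, 14.4% rose and 10.6% fell, and 8016 of 22180 had an unadjusted p under 0.05. The medians were -0.21 for H/ACA and -0.01 for C/D. Without thalidomide replicate 1 of 24 h they were -0.13 and 0.11, and 5 C/D RNAs rose and 5 fell. The C/D median also lay above 0 without replicate 1 or 2 of 72 h (0.006 and 0.017) and with array weights (0.036), and without replicate 1 of 72 h 4 C/D RNAs rose and 4 fell. The largest falls were those of Snora44 by 1.23, Snora73b by 1.09 and Snora73a by 1.08, and Snord53 (0.80) and Snord104 (0.63) led the C/D falls. By 48 h, 8 H/ACA RNAs and 2 C/D RNAs (Snord70 and Snord99) had fallen from their 24 h level in thalidomide cultures, as had 4.36% of all genes, with Snora75 lower by 0.68. In total 13 snoRNAs fell in both courses, which is 86.7% of the 15 that fell in controls and 72.2% of the 18 that fell in thalidomide cultures. Of all genes 14.3% fell in controls and 10.6% in thalidomide cultures. Their overlap is not given here, so whether snoRNAs shared more falls than other genes was not tested.

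Host genes fell more often than they rose over the control course. Over all genes 13.1% rose and 14.3% fell, and of the 5545 brightest genes 1189 rose and 1364 fell. Whether hosts fell more often than other genes was not tested. Of the 41 hosts, 18 fell and 4 rose (Kansl2, Rbmx, Rc3h2 and 2410002F23Rik). Of the 14 snoRNAs with a measured host that fell, 7 had a host that fell too, and of the 9 that rose, 3 had a host that rose and 2 a host that fell. Snhg12 fell by 0.53 together with Snora61 (by 0.89) and Snora44 (by 0.49), while Snord99 differed by -0.02 and Snora16a by 0.16. Ncl, which encodes nucleolin, fell by 0.40 with Snora75 (by 0.67). In contrast, Gnl3, a nucleolar GTPase gene, fell by 0.52 while its Snord69 rose by 0.47, and Kansl2 rose by 0.54 while its Snora2b fell by 0.30. Snhg1 fell by 0.40 while Snord22 (U22, needed in Xenopus for 18S ribosomal RNA processing) rose by 0.26. The rank correlation over the 55 snoRNAs and hosts was 0.25, as a description.

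Particle proteins of the H/ACA class fell along with their RNAs in controls. All 4 core genes fell from 24 to 72 h: Nhp2 by 0.65, Dkc1 by 0.58, Nop10 by 0.40 and Gar1 by 0.39. Dkc1 read 9.90, 9.86 and 9.97 in controls at 24 h, 9.52, 9.52 and 9.54 at 48 h, and 9.39, 9.42 and 9.19 at 72 h, 3 separate ranges. Naf1, which loads dyskerin onto nascent H/ACA RNAs, fell by 1.03 ± 0.13 (SE; limma adjusted p = 1.54e-05) and was among 6 of 12 assembly factors that fell. Of the C/D core protein genes, Nop58 fell by 0.31 and Snu13 by 0.26, and Nop56 differed by 0.04. Of the 14 genes of the RNA polymerase I list 11 fell, of 8 trimming genes 5 fell, of 17 Snhg-type hosts 8 fell, and of 5 nonsense-mediated decay genes Smg6 rose by 0.23. Over the same course 14.3% of all genes fell, as did 1364 of the 5545 brightest. The lists were not tested against these shares.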

How the data were processed

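The values are log2 signals per probe set as deposited by the authors, made by robust multi-array averaging (RMA). The software, per the submitters' processing notes, was version 1.3 of Affymetrix Expression Console. No genome build is given in the sources used here. Total RNA was labelled with a whole-transcript kit, per the labels' protocols; how such labelling captures short, structured RNAs was not measured. Arrays have no read depth: precision is set by their number, 3 per group.

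Of 41345 probe sets, 23521 had 1 gene symbol, 1814 had several and 16010 were not listed in the annotation. The brightest probe set per symbol was kept. Another 43 probe sets name a snoRNA together with other symbols and were not used. Hosts were taken by position from the RefSeq table (GRCm38.p6), which gives no strand, in place of the same-strand match first planned.

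limma 3.58.1 (R 4.3.3) fitted 6 group means to 18 arrays, without a replicate block, leaving 12 residual degrees of freedom, and 12 contrasts were tested with Benjamini-Hochberg adjustment over 22180 genes at 0.05. An exact permutation test of 3 against 3 arrays cannot go below 0.1 and was not used. The script was tested on simulated data. Named snoRNAs are the called members with the largest changes of each class and contrast (up to 6 per direction for exposure, 4 for time and for differences of effects) or, where none was called, the one with the smallest p, with the 3 brightest of each class and the members acting in cleavage; other genes come from fixed lists. A few further members are named after their values were seen, as the rest of a short list, a host or an array pattern. The members and lists were chosen with earlier results of these data known. No listed snoRNA of the imprinted clusters was among the 73. The labels give biological replicates without saying whether cultures were run in parallel. Same-numbered arrays of a time deviated with correlations of -0.14 to 0.12, so the numbers were not taken as pairs. Alternatives were other normalizations, filters, probe set rules, weights, moderation, the arrays fitted, the replicate block and leaving out each array. Leaving out arrays for hosts and listed genes at 24 h was added after seeing the data.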

Additional observations from a re-analysis of the deposited data

Results flagged for a closer look

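The effect of thalidomide on Snora44, an H/ACA RNA of Snhg12, differed between times by -0.74 (72 h minus 24 h; limma adjusted p = 0.0439). All 3 thalidomide arrays lay above all 3 controls at both times, by 0.33 on average at 72 h and 1.07 at 24 h. The effect on Snord104, a C/D RNA, differed by -0.77 (limma adjusted p = 0.0439), with a mean difference of 0.14 at 72 h and 0.91 at 24 h; its groups overlapped at 72 h and did not at 24 h. Over 20 alternatives the difference ranged from -0.84 to -0.60 for Snora44 and from -0.86 to -0.65 for Snord104, with limma adjusted p values of 0.011 to 0.107 and 0.0118 to 0.117. The 72 h thalidomide arrays lack the re-analysis tag that the other arrays of this contrast carry.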

How the results depend on the processing

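Over the named members, 1398 values kept their direction and their side of the threshold, 91 passed it only in the reported setting, 7 passed it only under an alternative and 0 reversed a call. The cause of each change below was not tested, except that fewer arrays or genes enter some fits. At 24 h the count of called snoRNAs was 26 (25 up, 1 down) when genes below the median signal were left out and 3 with the arrays of the contrast only. Over all genes the filter gave 370 rises and 1909 falls among 11090, and the contrast's arrays 23 and 98 among 22180. The reported fit gave 316 and 1205. At 48 h the snoRNA count was 15 with that filter, 9 with array weights, 10 with trend and robust moderation and 3 with the contrast's arrays only. Over all genes these fits gave 380, 491, 544 and 37 rises and 1570, 1112, 1428 and 126 falls, against 410 and 939 as reported. For the effect at 72 h minus that at 24 h the snoRNA count was 1 after cyclic loess, 4 with the filter, 4 with trend and robust moderation, and 0 with the contrast's arrays only. Over all genes these fits gave 38, 512, 425 and 4 rises and 28, 128, 107 and 1 falls, against 85 and 25 as reported. For 72 h minus 48 h the snoRNA count was 2 with the filter, 1 with array weights and 2 with trend and robust moderation, against 0. Over all genes these fits gave 292, 65 and 276 rises and 73, 24 and 74 falls, against 14 and 7 as reported. The 48 h median was 0.164 over all snoRNAs with the filter and 0.229 over C/D RNAs after cyclic loess. Leaving out 1 array gave 7 to 14 calls at 24 h, 3 to 5 at 48 h, 0 at 72 h, 19 to 36 in the control course, 18 to 22 in the thalidomide course, 0 to 2 for 72 h minus 24 h, and 0 for the other differences of effects. The medians then ranged from 0.152 to 0.272, 0.105 to 0.142 and 0.019 to 0.156 over all snoRNAs at 24, 48 and 72 h, from 0.071 to 0.234, 0.007 to 0.052 and 0.071 to 0.147 for H/ACA, and from 0.181 to 0.332, 0.186 to 0.227 and -0.003 to 0.161 for C/D.

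The replicate numbers did not pair the arrays. With the replicate block, 14 snoRNAs were called at 24 h and 0 for the effect at 72 h minus that at 24 h. Over all genes that fit gave 267 rises and 1030 falls at 24 h, and 50 and 20 for the difference of effects.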
